A study of Arabidopsis thaliana with 4 samples.

Results

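AT5G62360, a pectin methylesterase inhibitor-like gene, and TBL45 (AT2G30010), a member of the TRICHOME BIREFRINGENCE-LIKE family, are 2 of the 7322 genes that could be tested on 4 ATH1 arrays of Arabidopsis thaliana rosette leaves. Both were chosen by their measured fall under abscisic acid (ABA) on these same arrays, so their ABA differences are given as a description and carry no test. Each array stood for 1 group. The groups were line 52 plants overexpressing ERD15 sprayed with 100 µM ABA, the same line under mock spray, empty-vector pCP60 plants sprayed with 100 µM ABA, and empty-vector plants under mock spray. All plants had the Col-0 background and were 3 weeks old, both sprays held 0.07% ethanol, and leaves were taken after 90 min. Leaves of 3 plants were pooled for each sample except the vector mock sample, whose labels do not state it. The overexpressor is a single line, and the promoter that drives ERD15 in it is not given in the sources used here. A characteristic of the overexpressor samples names a gene knock-out, against their titles and source names, and the overexpressor reading was kept. ERD15 has 0 paired probe sets in the annotation used, so its level was not analysed here and the genotype labels are taken as given.

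Pectin is the gel-forming polysaccharide of the primary wall. Its homogalacturonan backbone is secreted in a methylesterified form, pectin methylesterases remove the methyl groups in the wall, and small inhibitor proteins bind these enzymes and block them. Many TBL proteins are wall polysaccharide O-acetyltransferases, with different members acting on xylan, xyloglucan, mannan or pectin. ABA is the hormone of drought and osmotic stress, under which leaf growth slows and walls are remodelled.

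The deposited values are MAS5 signals. For this comparison the arrays were brought to a common trimmed mean of 100, signals under 13.3 were raised to that floor, and genes with a mean signal under 29.0 were not tested. The 4 arrays had median deposited signals between 39.95 and 45.8. Across genes, the correlation of log2 signals between arrays ran from 0.878 to 0.935, and the vector mock array had the lowest values (0.878 to 0.902) and the most tested genes at the floor (72, against 33 to 35 on the others). Of the leaf markers, RCA and LHCB4.2 were paired with a probe set and were bright on every array, with signals of 4094 to 9006 and 3899 to 7639. Both were lowest on the overexpressor mock array. No seed, root or flower marker of the list could be checked, since 0 of them were paired. In pooled tissue, fewer cells of a type and less RNA per cell cannot be told apart.

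AT5G62360 had a signal of 15.95 on overexpressor ABA and 400.8 on overexpressor mock. In vector plants it had 37.35 on the ABA array and 513.1 on the mock array. Both ABA arrays thus lay far below both mock arrays, and the lowest value was close to the floor of 13.3, where a signal cannot be told from background without a detection call. The log2 difference, ABA minus mock, was -4.65 in the overexpressor (25.1-fold lower, a size left uncertain by the signal near the floor) and -3.78 in vector plants (13.7-fold lower). Among the tested genes this was the second lowest difference in each genotype. The order of the arrays was vector mock, overexpressor mock, vector ABA, overexpressor ABA, from high to low.

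TBL45 had a signal of 70.09 on overexpressor ABA and 541.5 on overexpressor mock. In vector plants it had 142.8 on the ABA array and 961.8 on the mock array. The arrays stood in the same order as for AT5G62360, and no ABA value reached the lower of both mock values. The log2 difference was -2.95 in the overexpressor (7.73-fold lower) and -2.75 in vector plants (6.74-fold lower), which ranked 4 and 5 from the bottom of all tested genes. In total, 76 of the 7322 genes (1.04%) were at least 2-fold lower with ABA in both genotypes. Both genes are among these by the way they were chosen.

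**Figure D1:**
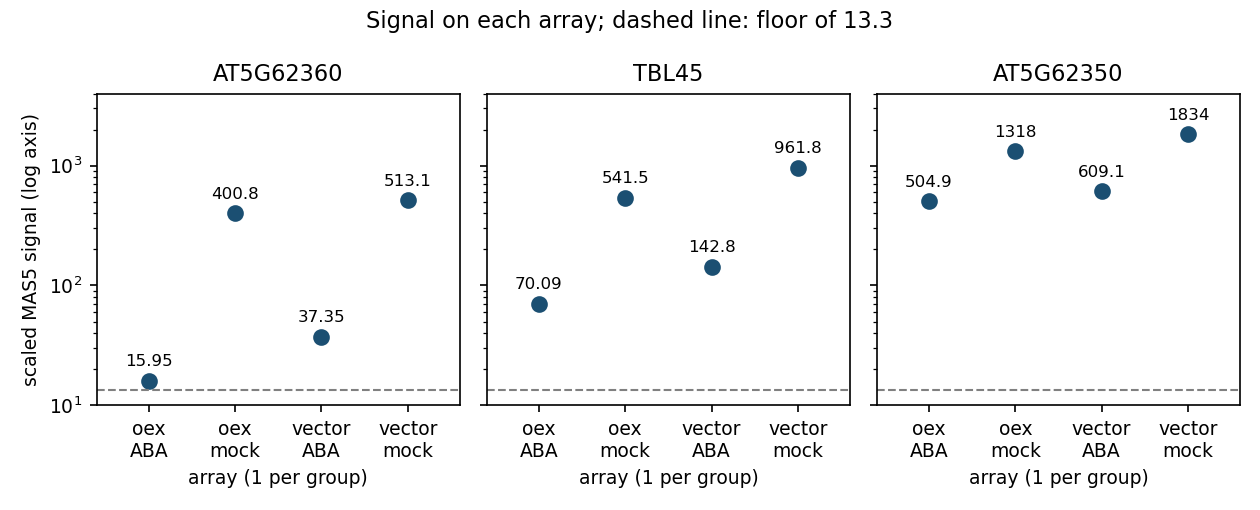
Scaled MAS5 signal (log axis) of AT5G62360, TBL45 and AT5G62350, the gene next to AT5G62360, on each of the 4 arrays (oex, ERD15 overexpressor). Each point is 1 array and the dashed line is the floor of 13.3. In each panel both ABA arrays lie below both mock arrays.

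With the scaling used here, the ABA difference itself was alike in both genotypes for TBL45 and less so for AT5G62360. Overexpressor minus vector, the difference of the ABA effect was -0.20 for TBL45, and 77.7% of all tested genes had a larger one in size. For AT5G62360 it was -0.87, exceeded in size by 23.8% of genes. Both values depended on the scaling. They were -0.30 for TBL45 and -1.08 for AT5G62360 with quantile normalization, and -0.57 and -1.24 with arrays centred on the median. Both genes were chosen by their ABA fall on these same arrays, so the shares of genes are a description and lend no support. With 1 array per group neither gene's value has a replicate check. The AT5G62360 value also rests on the overexpressor ABA signal of 15.95.

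The genotype comparison played no part in the choice of these genes, although it uses the same 4 arrays. TBL45 was lower in the overexpressor under both sprays: its log2 difference, overexpressor minus vector, was -1.03 under ABA (2.04-fold lower) and -0.83 under mock (1.78-fold lower). In the additive limma fit of genotype and treatment over the 4 arrays, the genotype effect of TBL45 was -0.93 ± 0.27 (SE), with an adjusted p of 0.0415. AT5G62360 had differences of -1.23 under ABA and -0.36 under mock, and its genotype effect of -0.79 ± 0.30 did not pass (limma adjusted p = 0.222). Over all genes 119 of 7322 (1.63%) passed for genotype, of which 41 (0.56%) were lower in the overexpressor. Being lower under both sprays was not particular to TBL45 and AT5G62360. Of the 76 genes at least 2-fold lower with ABA in both genotypes, 40 (52.6%) were lower in the overexpressor under each spray. Over all tested genes this share was 25.3%. The 76 were picked on the same 4 arrays, and the vector mock signal enters both the ABA and the genotype difference. The gap between these shares may thus stem in part from the choice. The fit has 1 residual degree of freedom per gene, so its SE is in effect that of genes with a like signal and does not measure variation between plants. The TBL45 genotype call was lost with quantile normalization (adjusted p = 0.205), with arrays centred on the median (0.701), with a lower floor (0.0598), with no filter on dim genes (0.9) and without a trend in the variance (0.828), while its size stayed between -0.95 and -0.93.

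The other TBL genes set the background for TBL45. RefSeq holds 40 other protein-coding genes whose symbol is TBL and a number, 21 of them were paired with a probe set, and 11 of these passed the filter on dim signals. AT2G31110, which RefSeq lists as TBL40 only as a further name, is not counted among them. It fell with ABA and is described below. Of the 11, 1 rose with ABA by the limma test, 0 fell and 10 did not pass, against 228 of 7322 genes (3.11%) called in either direction, 1.67% higher and 1.45% lower. The median log2 ABA difference of the 11 was 0.14 over both genotypes, beside -0.01 over all tested genes, and their lowest was -0.23, for TBL38. No other tested TBL gene thus came near the -2.85 of TBL45, although TBL45 was picked for that value.

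The TBL gene that rose was TBL26, which encodes a mannan O-acetyltransferase. Its signal was 116.6 on overexpressor ABA and 49.4 on overexpressor mock. In vector plants it was 177.4 on the ABA array and 60.85 on the mock array, so that both ABA arrays were above both mock arrays. It was 2.36-fold higher with ABA in the overexpressor and 2.92-fold higher in vector plants, with a limma log2 effect of 1.39 ± 0.31 (adjusted p = 0.000641). A rise of 2-fold or more in both genotypes was seen in 71 genes (0.97%). The call held with quantile normalization (0.0246) and was lost with arrays centred on the median (0.0613), with no filter (0.945) and without a trend (0.188).

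The other tested TBL genes of the mannan-acetylating group, TBL23 and TBL25, had small differences and did not pass. TBL23 had ABA differences of 0.23 in the overexpressor and 0.27 in vector plants, and TBL25 had 0.18 and 0.11 in the same order. TBL25 read 398.7 on overexpressor ABA, 351.4 on overexpressor mock, 514.7 on vector ABA and 478.5 on vector mock, a narrow range over which the sprays overlapped. TBL18, whose substrate is not stated here, had 0.42 and 0.31.

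The tested genes of the xylan-acetylating group did not share a direction. TBL28 had an ABA difference of 0.74 in the overexpressor and -1.0 in vector plants, TBL35 had 0.08 and -0.40, and TBL32 had 0.01 and 0.49. The TBL32 probe set is of the type that can bind transcripts of related genes, so its value may not be that of TBL32 alone. TBL28 stood highest on vector mock, at 74.07, against 22.98 to 38.3 on the other arrays.

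TBL36 had 0.66 in the overexpressor and -0.97 in vector plants, and TBL38, which encodes a pectin acetylesterase and so removes acetyl groups, had 0.24 and -0.71. Both were highest on vector mock as well, at 53.26 and 121.6. TBL37 had -0.08 and 0.92 and was lowest on that array, at 115.0 against 206.4 to 218.4. TBL16 stayed between 80 and 87.41 on all arrays. In all, 6 of the 11 had ABA differences of opposite sign in the genotypes, as did 51.1% of all tested genes.

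**Figure D2:**
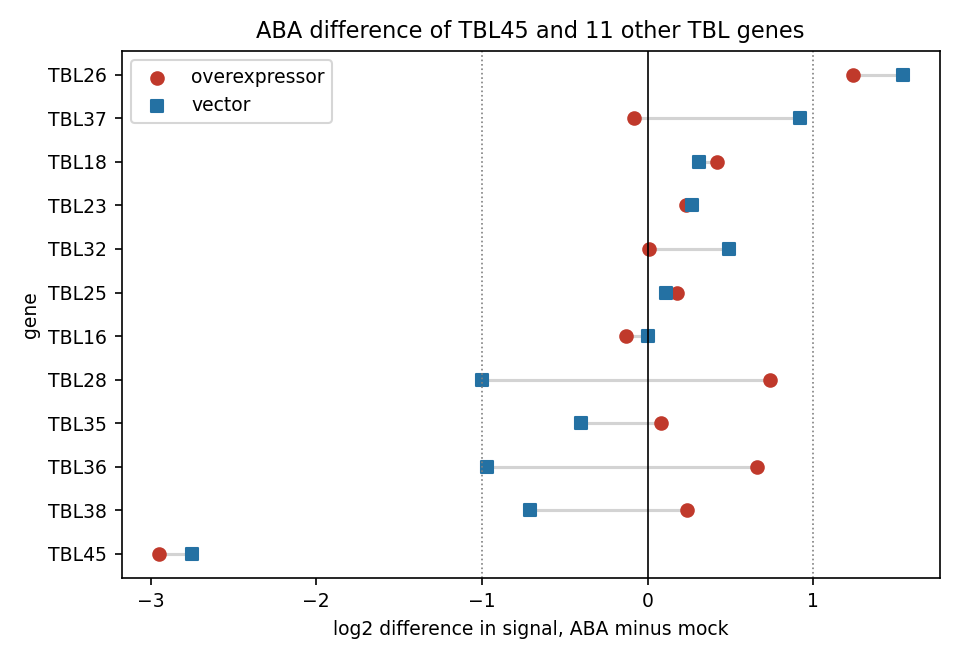
Log2 ABA difference (ABA minus mock) of TBL45 and the 11 other tested TBL genes, sorted by the mean over genotypes; red circles are the overexpressor, blue squares are vector plants, each from 1 ABA and 1 mock array, and dotted lines mark 2-fold. TBL45 lies near -3 in both genotypes, and TBL26 is the 1 gene beyond 2-fold above 0 in both.

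For genotype, 0 of the 11 passed by limma, beside 119 of all 7322 tested genes (1.63%). TBL38, 1 of the 11, had an unadjusted limma p under 0.05 (-0.80 ± 0.34, adjusted p = 0.348), against 641 of the 7322 genes. The genotype effects of the 11 ran from -0.82 to 0.43, with a median of -0.26 beside 0.01 over all genes. The -0.93 of TBL45 lay just beyond the lowest of them, the -0.82 ± 0.52 of TBL28.

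The 10 TBL genes under the filter were TBL15, TBL19, TBL20, TBL21, TBL30, TBL34, TBL39, TBL41, TBL42 and TBL43. Their signals ran from 0.848 to 48.8, and 8 of them were at the floor on at least 1 array. TBL15 was at least 2-fold higher with ABA in both genotypes, at 48.85 on overexpressor ABA against 19.07 on overexpressor mock, and at 29.61 on vector ABA against 14.23 on vector mock. Its signals are too low to be tested here.

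Outside the TBL symbols, 2 of 9 genes of wall acetylation were paired and tested, and 1 of the 2 fell with ABA, beside 1.45% of all tested genes. AT2G31110, listed in RefSeq also as TBL40, has 2 paired probe sets, and the values given are those of the brighter one. The other was not compared here. The signals were 114.6 on overexpressor ABA and 211.5 on overexpressor mock, and 90.86 on vector ABA and 220.8 on vector mock. Both ABA arrays lay below both mock arrays, by 1.85-fold in the overexpressor and 2.43-fold in vector plants, with a limma log2 effect of -1.08 ± 0.28 (adjusted p = 0.00673). This call was lost with quantile normalization (0.0813), with arrays centred on the median (0.232), with no filter (0.945) and without a trend (0.388). AT5G06700, TRICHOME BIREFRINGENCE itself, the founding gene of the family and needed for the crystalline cellulose of leaf hairs, had a difference of 0.41 ± 0.28 (adjusted p = 0.91), with 0.62 in the overexpressor and 0.21 in vector plants. Neither gene passed for genotype, beside 1.63% of all tested genes that did.

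The list of pectin methylesterification held the 21 genes that RefSeq names as such by symbol or synonym, and so leaves out genes of these families known by a locus tag alone. Of the 21, 4 were paired and 3 tested, and 1 of the 3 rose with ABA, beside 1.67% of all tested genes. The gene that rose was ATPMEPCRB (AT4G02330), which encodes pectin methylesterase PME41, an enzyme of the kind that the inhibitors block. Its signal was 444.1 on overexpressor ABA and 195.5 on overexpressor mock, and 576.0 on vector ABA and 82.91 on vector mock. Both ABA arrays were above both mock arrays, 2.27-fold in the overexpressor and 6.95-fold in vector plants, with a limma log2 effect of 1.99 ± 0.27 (adjusted p = 1.26e-10). The adjusted p was 0.0042 with quantile normalization, 0.051 with arrays centred on the median, 0.945 with no filter and 0.164 without a trend. The unequal size in the genotypes came with its lowest signal on vector mock, and the part of that array in the result was not tested.

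The pectin methylesterase genes PME61 and PMEPCRF had ABA differences of opposite sign in the genotypes. PME61 had -0.65 in the overexpressor and 1.00 in vector plants, and PMEPCRF had -0.84 and 0.70. Both were lowest on vector mock, at 68.12 and 373.0, as ATPMEPCRB was. For genotype, 0 of the 3 passed by limma, beside 119 of all 7322 tested genes (1.63%). PMEPCRF, 1 of the 3, had an unadjusted limma p under 0.05 (0.76 ± 0.28, adjusted p = 0.2), against 641 of the 7322 genes. The pectin methylesterase gene AT4G02300 was under the filter, at 4.245 to 23.02. Of 28 pectin synthesis genes 1 was measured, the galacturonosyltransferase gene GAUT15, with 0.41 and 0.01. Of 15 pectin-degrading genes 1 was paired, the polygalacturonase gene ADPG1, at the floor on all arrays.

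In RefSeq order, the protein-coding gene next to AT5G62360 on one side is AT5G62350, and the next one on that side is AT5G62340. Neither is in the pectin methylesterification list, which leaves out genes of these families known by a locus tag alone. What either encodes is not stated here. AT5G62350 fell with ABA too. It had a signal of 504.9 on overexpressor ABA and 1318 on overexpressor mock, and of 609.1 on vector ABA and 1834 on vector mock. Its order of the arrays was that of AT5G62360. The falls were 2.61-fold in the overexpressor and 3.01-fold in vector plants, with a limma log2 effect of -1.49 ± 0.30 (adjusted p = 5.95e-05). The fall of AT5G62360 was larger in both genotypes, although its size in the overexpressor rests on a signal close to the floor. The call held with quantile-normalized (0.00253) and median-centred (0.0293) arrays, and was lost with no filter (0.945) and without a trend (0.164). Its genotype effect was -0.37 ± 0.30 (adjusted p = 0.891). AT5G62340 was too dim to be tested, at 28.72 on overexpressor ABA, 17.64 on overexpressor mock, 1.524 on vector ABA and 44.71 on vector mock, and AT5G62330 beyond it was at 3.419 or less on every array. The 3 genes on the other side were not paired. Near TBL45, AT2G29995 had ABA differences of 0.30 in the overexpressor and -0.29 in vector plants, and AT2G30050 had -0.13 and -0.56.

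**Figure D3:**
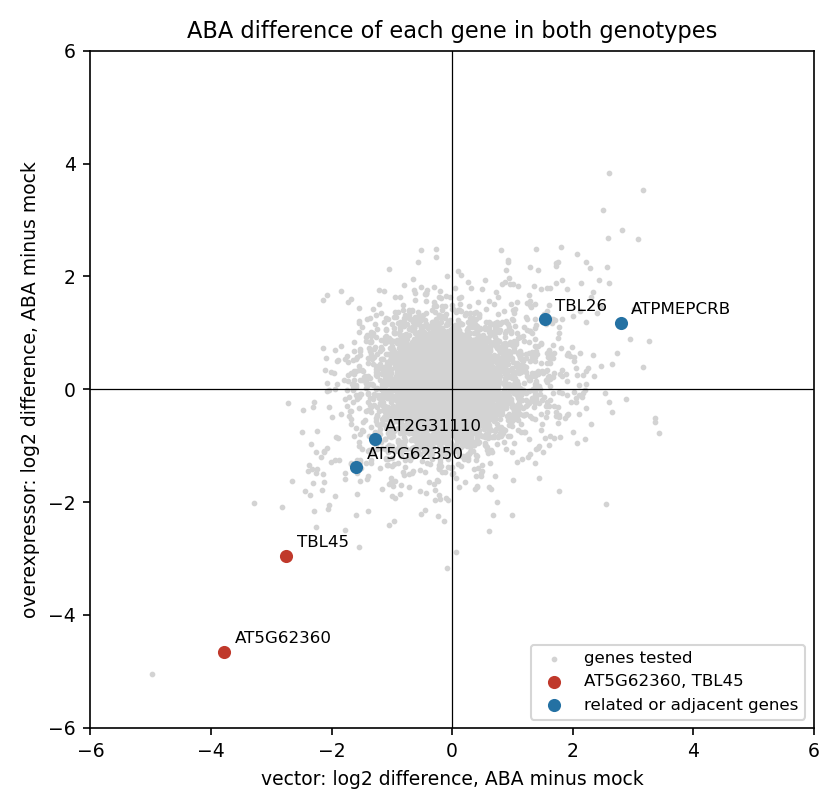
Log2 ABA difference (ABA minus mock) of each of the 7322 tested genes in the overexpressor (vertical axis) and in vector plants (horizontal axis), each from 1 ABA and 1 mock array. AT5G62360 and TBL45 (red) lie at the low end of both axes; AT5G62350 and AT2G31110 lie on the same side and TBL26 and ATPMEPCRB on the opposite side (blue).

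The patterns over the 4 arrays were compared by the root mean square distance of log2 signals, each gene centred on its own mean. The genes most like AT5G62360 were AT4G21870, at a distance of 0.46, and TBL45 itself, at 0.71, followed by AT3G52950 (0.95), AT5G07580 (0.98) and AT2G04795 (1.03). Most like TBL45 were AT3G52950 (0.29), AT5G07580 (0.38), XTH33 (0.39), AT3G23550 (0.40) and AT3G06070 (0.43). Apart from TBL45, XTH33 alone of these has a symbol other than its locus tag, and what the rest encode is not stated here. AT4G21870 had ABA differences of -5.04 in the overexpressor and -4.98 in vector plants, the lowest of all tested genes in each. XTH33 encodes a xyloglucan endotransglucosylase/hydrolase, which cuts and rejoins xyloglucan chains in the wall. Its signal was 29.34 on overexpressor ABA and 165.2 on overexpressor mock, and 79.16 on vector ABA and 271.6 on vector mock. It was thus lower with ABA by a log2 of -2.49 in the overexpressor and -1.78 in vector plants. All the genes named here were also lower in the overexpressor under each spray. The genotype effects of XTH33 (-1.07) and AT4G21870 (-1.02) were larger in size than that of TBL45 (-0.93). The distance takes in the genotype difference, so this is no separate result. Such likeness over 4 arrays is dominated by the ABA difference and is a description only.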

How the data were processed

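The authors deposited MAS5 signal intensities, 1 value per probe set on a linear scale, per the submitters' processing notes; the version is not given in the sources used here. MAS5 scales each array to a common mean, which hides any change of total RNA, and the deposited trimmed means lay between 99.1 and 99.32. The table holds 22810 probe sets, 64 of them controls. The platform annotation pairs 13513 with 1 gene, 503 with several (not named here) and 8730 non-control probe sets with none, and 13436 matched the TAIR10.1 RefSeq table, used for names and gene order only.

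Arrays were scaled to a common 2%-trimmed mean of 100, controls aside. Signals below the 25th percentile of all arrays were raised to it before log2, probe sets whose mean fell below the 40th percentile were not tested, and the brightest probe set stood for a gene. limma 3.58.1 in R 4.3.3 fitted treatment and genotype additively over the 4 arrays (eBayes with a trend, Benjamini-Hochberg at 0.05 over 7322 genes) and was tested on simulated data. With 1 array per group, p-values rest on a spread shared between genes (median prior degrees of freedom 2925), and the number of arrays limits the precision. The members and lists were chosen with earlier results of these data known. RefSeq has no descriptions here, so lists were matched on symbols and synonyms, and 10 genes of another kind that share such a name were left out. The genes named are the members, every paired TBL gene, the neighbours AT5G62340 and AT5G62350, the called or brightest genes of each list and the 5 nearest patterns per member; the other neighbours were added after their values were seen. Alternatives were quantile normalization, median centring, a 10th percentile floor, no filter, a 60th percentile filter, no trend and the second probe set.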

Additional observations from a re-analysis of the deposited data

Results flagged for a closer look

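Among the genes described, 14 had ABA differences of opposite sign in the genotypes. Each value is the overexpressor's ABA difference minus that of vector plants, on the log2 scale, from 1 array per group, and these differences were not tested. Of the tested genes, it was 1.74 for TBL28, 1.63 for TBL36, 0.96 for TBL38, 0.59 for AT2G29995, 0.48 for TBL35, -0.13 for TBL16, -1.0 for TBL37, -1.54 for PMEPCRF and -1.65 for PME61. Of the genes too dim to be tested, it was 2.46 for AT5G62340, 2.16 for TBL39, 1.95 for TBL42, 1.82 for TBL34 and -2.63 for TBL41. Opposite signs were seen in 51.1% of all tested genes, and the median size of the difference over all tested genes was 0.47.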

How the results depend on the processing

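None of the members' effects, nor the ABA effects of TBL26, ATPMEPCRB, AT2G31110 and AT5G62350, changed sign under the alternatives run. The ABA differences of AT5G62360 and TBL45, averaged over genotypes, stayed between -4.26 and -4.22 and between -2.86 and -2.84. This average hides a shift between genotypes. The overexpressor's ABA difference minus that of vector plants went from -0.87 to -1.24 for AT5G62360 with median centring, and from -0.20 to -0.57 for TBL45. The genotype call of TBL45 was lost with quantile normalization (-0.95), median centring (-0.94), the lower floor, no filter and no trend (-0.93 each) and held with the 60th percentile filter. The count of other TBL genes called for ABA was 0 with median centring, with no filter and without a trend (1 had an unadjusted limma p under 0.05 in each), and 2 were at least 2-fold changed in both genotypes with no filter, where TBL15 joins TBL26. The count over the wall lists was 2, against 1 with quantile normalization and 0 with median centring, no filter and no trend, where 2, 1 and 2 had an unadjusted limma p under 0.05. Over all genes, the ABA count was 228, against 115 with quantile normalization, 63 with median centring, 9 without a trend and 0 with no filter (limma, 641 of 13356 with an unadjusted p under 0.05). The genotype count was 119, against 5, 4, 1 and 0 in the same order (562 unadjusted with no filter). Median centring moved the median ABA difference over all genes to -0.13 in the overexpressor, against 0.06 as reported, and to 0.09 in vector plants, against -0.09, so that both medians changed sign. With the overexpressor arrays alone, an alternative chosen after seeing the data that leaves out vector mock, 1 of the 11 TBL genes and 1 wall list gene were at least 2-fold changed. The share of all tested genes past 2-fold on these arrays alone is not given here, so these counts have no background to be read against. The second probe set left both ABA counts of the other TBL genes at 1 and was planned for these alone. No paired analysis was possible because each group holds a single array with the same replicate number. Without detection calls, signals near the floor limit the size of the AT5G62360 fall.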

Other observations

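Being lower in the overexpressor was common among the genes that ABA lowered. Of the 76 genes at least 2-fold lower with ABA in both genotypes, which include AT5G62360 and TBL45, 58 (76.3%) had a negative genotype difference over both sprays, and 40 (52.6%) were lower in the overexpressor under each spray. Over all 7322 tested genes these shares were 48.4% and 25.3%. Among the 71 genes at least 2-fold higher with ABA in both genotypes they were 43.7% and 28.2%. The median genotype difference was -0.29 among the 76 and 0.10 among the 71. The share of negative differences among the ABA-lowered genes was 81.3% after quantile normalization and 70.8% after median centring. Among the ABA-raised genes it was 44.7% and 52.2% in the same order, and their median genotype difference was 0.05 and -0.02, so that its sign turned with median centring. This comparison was chosen after the values were seen, rests on 1 array per group and was not tested.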
